A study of Ricinus communis with 18 samples.

Results

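Castor (Ricinus communis) roots taken 4 days after PEG was removed were compared with roots of untreated plants of the same day, 11 days into the experiment. The comparison rested on 6 of the 18 RNA libraries of the series, 3 from rehydrated roots and 3 from control roots, and on the 16085 of 21332 listed genes that had enough counts. The rehydrated roots had been in 15% PEG-6000 and then had 4 days without it, which the design text counts as day 11 and which leaves 7 days in PEG. PEG-6000 is a polymer that lowers the water potential of the solution and so withholds water from roots without entering their cells. The control roots of day 11 had no PEG at any time. The other 12 libraries came from PEG-treated and control roots of 3 and of 7 days, 3 per group, and every treated group had controls of its own day. All samples were labelled as root system, and nothing in the labels gives the cultivar, the age of the plants or whether a library came from 1 plant or several. The p-values therefore measure the spread between these libraries, which may be technical.

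Water shortage raises abscisic acid in plants. The hormone binds receptors of the PYR/PYL family, these hold back protein phosphatases of type 2C, and SnRK2 kinases are then free to activate stress genes. Shortage of water also raises reactive oxygen, which superoxide dismutases, catalases and ascorbate and glutathione peroxidases remove. When water returns, abscisic acid is broken down, largely by 8'-hydroxylases, and roots can resume growth and uptake.

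Total counts were 8061335, 7621898 and 7903405 in the rehydrated libraries, against 6607760, 7644766 and 8341285 in the control libraries of day 11. Levels are given as CPM, a gene's counts scaled to the size of its library, here after edgeR's TMM correction. CPM does not correct for gene length, so it compares libraries within a gene and not genes with each other. Root markers were present in both groups. The 34 tested genes of the Casparian strip and of suberin summed to 574 to 794 CPM in rehydrated roots and to 680 to 1050 CPM in control roots, and SHORT-ROOT (ncbi_8283369), a regulator of the endodermis, averaged 53.5 CPM in rehydrated and 63.8 CPM in control roots. Genes of photosynthesis, markers of green tissue, were not absent and are described further on. Control library 3 stood apart from the other libraries of its day in how its counts were spread over short and long genes. Relative to the mean of the 6 libraries of day 11, its shortest 10% of genes had a median log2 deviation of 0.52, where the other 5 libraries ranged from -0.22 to 0.16. Its longest 10% had a median deviation of -0.41, where the other 5 ranged from 0 to 0.25. Over the series such values were not unusual. For the shortest 10%, control libraries 2 and 3 of day 7 had 0.3 and 0.4, and PEG-treated libraries had 0.35 to 0.75. The rehydrated libraries, at -0.22 to -0.13, were at the low end of the series, with control library 2 of day 3 (-0.21). Which libraries of day 11 departed was not tested. Between rehydrated and control roots the shortest 10% (median length 684 bases, as implied by the deposited counts and FPKM) had a median log2 change of -0.43, or -0.25 without control library 3. The longest 10% (median 3835 bases) had a median of 0.19, or 0.06 without that library. Values without control library 3 are therefore given beside several list medians and some short genes. Where no such value is given, the result may still depend on that library, and any list median may depend on other single libraries. In whole roots, fewer cells of a type and less RNA per cell cannot be told apart.

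**Figure D1:**
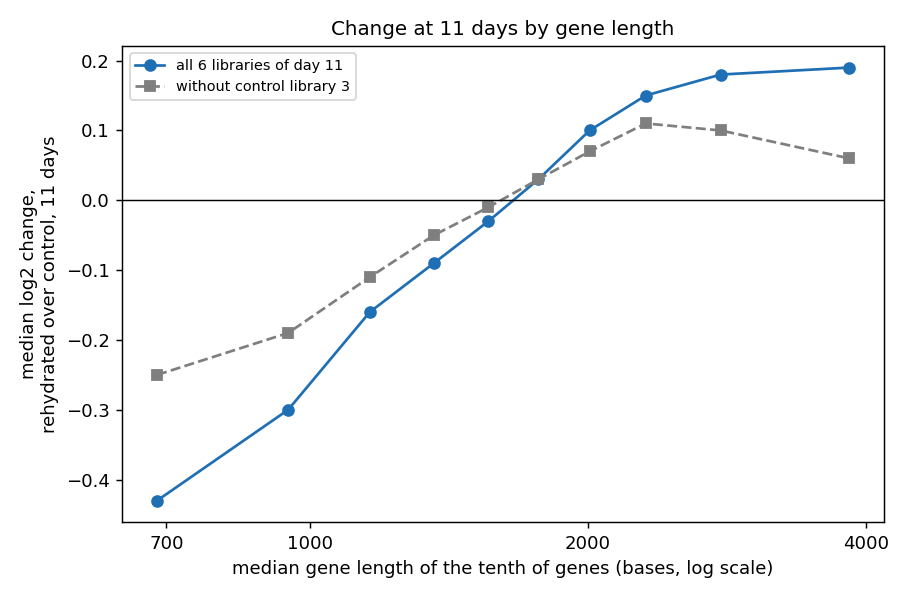
Median log2 change of rehydrated over control roots at 11 days (vertical axis) for 10 equal classes of gene length (horizontal axis, bases, log scale). Circles use all 6 libraries of day 11 and squares leave out control library 3. The change went up with length, from -0.43 in the shortest class to 0.19 in the longest, and the range was smaller without that library.

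Few genes were called between rehydrated and control roots 4 days after PEG was removed. With edgeR's quasi-likelihood test and Benjamini-Hochberg adjustment over all 16085 genes, 2 genes were called at an adjusted p below 0.05, which is 0.0124% of the genes tested. One was higher in rehydrated roots (0.00622%) and the other was lower (0.00622%). Between PEG-treated and control roots the same fit called 3712 genes (23.1%) at 3 days and 652 (4.05%) at 7 days. The changes themselves were also smaller. The median absolute log2 change was 0.64 at 3 days, 0.47 at 7 days and 0.32 at 11 days. By 2-fold or more 31% of the genes differed at 3 days, 21.9% at 7 days and 8.03% at 11 days. Of those at 11 days, 565 were higher and 726 lower in rehydrated roots. The median SE was 0.377 at 11 days, 0.377 at 7 days and 0.38 at 3 days. The fit shared 1 estimate of spread over all 18 libraries. Alike SEs therefore do not show that the libraries of each time were equally variable. At 11 days a typical gene's log2 change was known to about 0.8 to either side (median reach of the 95% interval). A gene that was not called may thus still have differed by that much or more. At an unadjusted p below 0.05 there were 1564 genes (9.72%), of which 471 (2.93% of all genes) were higher and 1093 (6.8%) lower in rehydrated roots. DESeq2 called 58 genes (0.361%), 19 higher and 39 lower, which include both genes called by edgeR. The edgeR count was 0 without control library 2, without control library 3 and without any 1 of the 3 rehydrated libraries, and 3 without control library 1. The 5 fits with no call had 896 to 1438 genes at an unadjusted p below 0.05.

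The gene called higher, ncbi_8278263, encodes a cytochrome P450 of the CYP71 family, enzymes that oxidise small molecules. It stood at 10.7, 9.35 and 10.5 CPM in rehydrated roots, against 4.18, 2.47 and 2.89 CPM in control roots of day 11. All rehydrated libraries lay above all control libraries. The log2 change was 1.67 ± 0.25 (SE; 95% interval 1.14 to 2.2; edgeR adjusted p = 0.0405). At 7 days the gene had been at 7.44, 5.31 and 6.17 CPM in PEG-treated roots, against 13.4, 10.8 and 11.5 CPM in control roots, a log2 change of -0.92 ± 0.24 (edgeR adjusted p = 0.0438). Relative to controls of the same day it was thus lower in PEG and higher after PEG, and the difference between the days was itself called (log2 2.59 ± 0.35, edgeR adjusted p = 0.00813). Its level in rehydrated roots lay near that of 7-day controls, and the lowest of the 4 groups was the control of day 11. At 11 days the call was lost without control library 2, without control library 3 and without any 1 rehydrated library, and over all alternatives the adjusted p ranged from 4.14e-06 to 0.421.

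The gene called lower, ncbi_8263126, belongs to the macrophage migration inhibitory factor family, whose animal members act as cytokines. It stood at 4.1, 4.8 and 4.0 CPM in rehydrated roots, against 12.2, 22.6 and 38.0 CPM in control roots. The groups did not overlap, and the control libraries were widely spread. The log2 change was -2.49 ± 0.37 (95% interval -3.27 to -1.72; edgeR adjusted p = 0.0405), and -2.01 without control library 3, the highest of the 6. At 7 days the gene was at 7.58, 6.97 and 8.41 CPM in PEG-treated roots and at 4.93, 6.63 and 8.52 CPM in control roots, and these groups overlapped. At 3 days it had been called higher in PEG, at 9.28, 8.24 and 11.5 CPM in PEG-treated and 3.47, 3.46 and 5.71 CPM in control roots (log2 1.20 ± 0.36, edgeR adjusted p = 0.0263). The 11-day call was lost without the same libraries, and over all alternatives the adjusted p ranged from 1.61e-06 to 0.366.

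**Figure D2:**
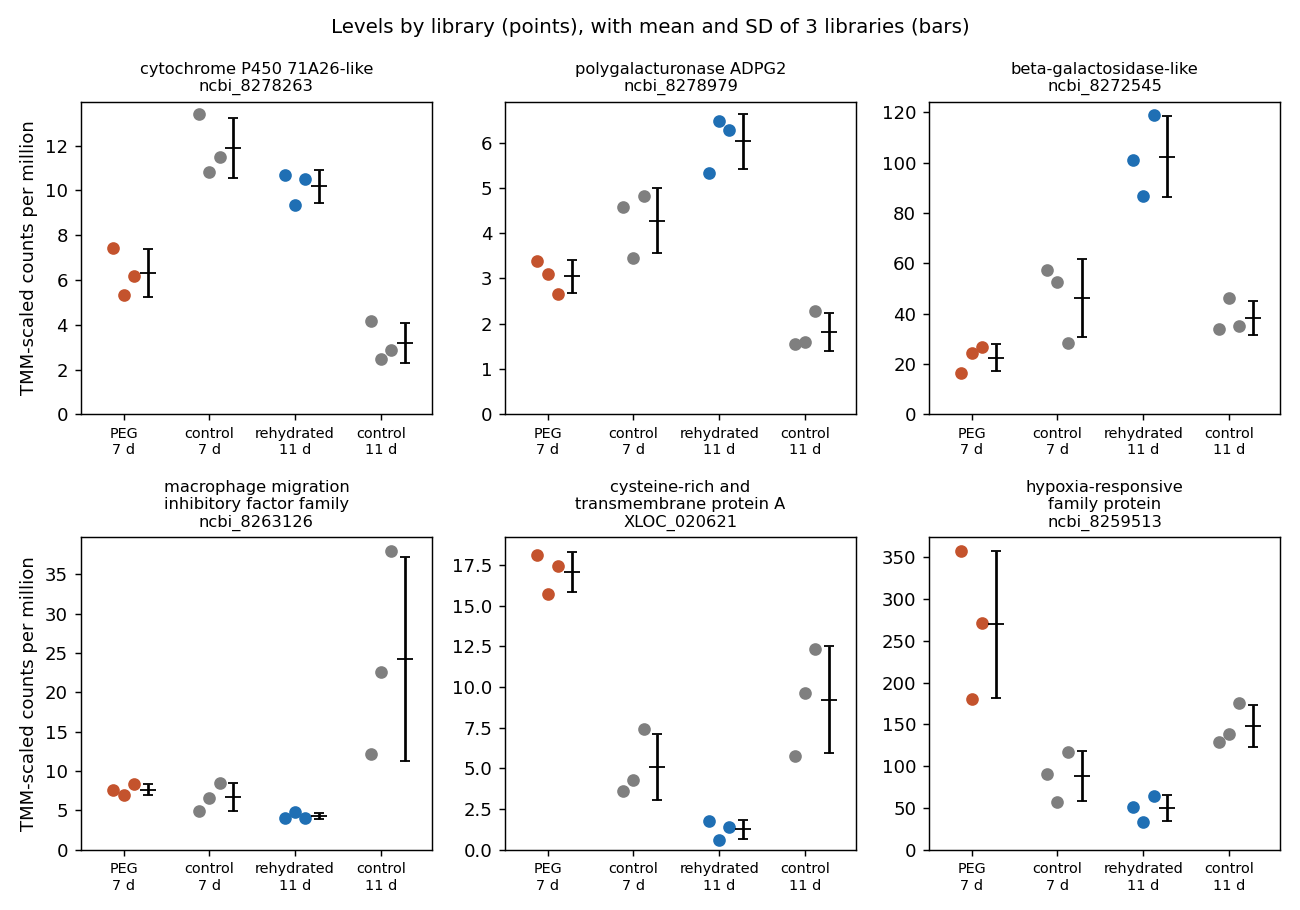
Level of 6 genes (vertical axis, TMM-scaled CPM, from 0) in the 3 libraries of PEG-treated and control roots at 7 days and of rehydrated and control roots at 11 days. Points are libraries and bars show the mean and SD of 3 libraries. The 3 genes of the upper row were higher in rehydrated than in control roots without overlap, for example 101, 86.8 and 119 in rehydrated against 33.7, 46.2 and 35.1 in control roots for beta-galactosidase-like, and the 3 of the lower row were lower.

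Beside these, the 4 genes with the next smallest p in each direction were not called by edgeR and are given as values. DESeq2 called all 8. Above control were 2 genes of cell wall sugars. The polygalacturonase ADPG2 (ncbi_8278979), an enzyme that cuts pectin and acts in pod opening and organ shedding in Arabidopsis, was at 5.33, 6.47 and 6.28 CPM in rehydrated roots, against 1.55, 1.6 and 2.29 CPM in control roots (log2 1.72 ± 0.29, edgeR adjusted p = 0.0832). A beta-galactosidase (ncbi_8272545), an enzyme that trims galactose from wall polysaccharides, was at 101, 86.8 and 119 CPM in rehydrated roots and at 33.7, 46.2 and 35.1 CPM in control roots (log2 1.41 ± 0.31). The other two were 5-oxoprolinase (ncbi_8279587, log2 0.96 ± 0.20), which returns a product of glutathione breakdown to glutamate, and acyl-CoA dehydrogenase family member 10 (ncbi_8278766, log2 1.42 ± 0.32). This last gene had also been higher in PEG at 7 days (log2 1.30 ± 0.31, edgeR adjusted p = 0.0325).

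Below control, a short cysteine-rich transmembrane protein (XLOC_020621), of a family linked to stress in plants, was at 1.74, 0.599 and 1.41 CPM in rehydrated roots, against 5.73, 9.63 and 12.3 CPM in control roots. The log2 change was -2.85 ± 0.46 (edgeR adjusted p = 0.0689), or -2.59 without control library 3. Phosphopantetheine adenylyltransferase (ncbi_8273386), an enzyme of coenzyme A synthesis, had a log2 change of -1.39 ± 0.28. Elicitor-responsive protein 1 (ncbi_8261652) had one of -1.19 ± 0.25. A copper chaperone, ATOX1 (ncbi_8284787), had one of -1.43 ± 0.30. All 8 were without overlap, but since they were chosen by their p in this comparison that adds nothing to their values. Across all genes 1169 (7.27%) were higher and 1710 (10.6%) lower without overlap.

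The genes that had differed in PEG were mostly back near the control level by 11 days. Of the 652 genes called at 7 days, 417 had been higher in PEG-treated roots (2.59%), with a median log2 change of 1.66. At 11 days, in libraries that did not choose them, the same 417 genes had a median of -0.16 (quartiles -0.47 and 0.25). Of them 24 (5.76%) were still higher by 2-fold or more, beside a smaller share of all genes (565 of 16085). Neither gene called by edgeR at 11 days was among the 417. The 235 genes that had been lower in PEG (1.46%) had a median of -1.59 at 7 days and of 0 at 11 days (quartiles -0.38 and 0.31). Of these 15 (6.38%) were still lower by 2-fold or more, beside a smaller share of all genes (726 of 16085). The cytochrome P450 ncbi_8278263 was the 1 gene called at both 7 and 11 days, in opposite directions. Genes called at 3 days had medians on the other side of control at 11 days. The 1883 higher ones (11.7%) had a median of 1.4 in PEG and of -0.26 after it, and the 1829 lower ones (11.4%) had medians of -1.5 and 0.16. Direction carried over in 40.3% of the genes higher and 49.4% of the genes lower at 7 days, and in 32.6% and 33.1% of those higher and lower at 3 days. Of all genes, 49.6% were below control at 11 days. The shortest 10% of all genes had a median log2 change of 0.58 in PEG at 3 days and of -0.43 at 11 days. For the longest 10% these were -0.51 and 0.19. With the trend on gene length removed, the genes higher and lower at 7 days had medians of -0.05 and -0.03 at 11 days. Those higher and lower at 3 days had -0.14 and 0.07. The part of gene length in this was not tested. Without overlap, 44 of the 417 genes were above control at 11 days and 95 below it, and 30 of the 235 genes were below control and 17 above it. Of the 1883 genes higher at 3 days, 107 were above control at 11 days and 417 below it without overlap. Of the 1829 genes lower at 3 days, 113 were below control and 219 above it without overlap. Across all genes 7.27% were above control and 10.6% below it without overlap. Across all 16085 genes the 7-day and 11-day log2 changes, which share no library, had a Pearson correlation of -0.09 and a Spearman correlation of -0.13. Genes are not independent replicates and no p is given.

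**Figure D3:**
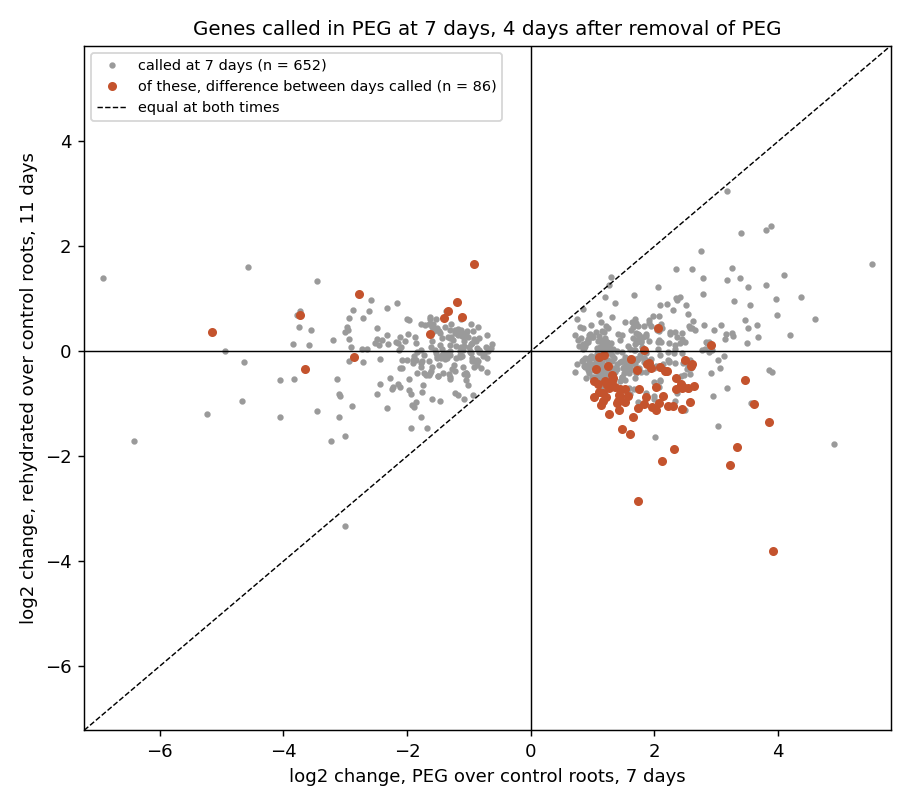
Log2 change of rehydrated over control roots at 11 days (vertical axis) against that of PEG-treated over control roots at 7 days (horizontal axis) for the 652 genes called at 7 days. Orange points are the 86 of them for which the difference between the days was called as well. Most points lie near 0 on the vertical axis and away from the dashed line of equal change, with medians of -0.16 for the 417 genes to the right and 0 for the 235 to the left.

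The 16 genes with the largest changes in PEG at 7 days show how far single genes had returned. They were chosen by their 7-day values, after these had been seen, and only their day-11 values are read here. A naringenin 3-dioxygenase (ncbi_8270763), an enzyme of flavonoid synthesis, had been at 246, 133 and 226 CPM in PEG-treated roots, against 28.7, 7.6 and 6.51 CPM in control roots of 7 days. At 11 days it was at 18.8, 15.6 and 45.9 CPM in rehydrated and at 12.8, 19 and 1.44 CPM in control roots, and the groups overlapped. Chitinase 3 (ncbi_8282608), which cuts fungal walls, was at 14.6, 8.15 and 25.8 CPM in rehydrated and at 10.8, 7.4 and 6.14 CPM in control roots, after 112, 33.5 and 87 CPM in PEG-treated roots. Of the 8 genes that had been higher, 2 were still above control without overlap, beside 7.27% of all genes. A zinc finger protein (ncbi_8269145) was at 13.7, 8.03 and 14.2 CPM in rehydrated and at 1.55, 3.95 and 1.32 CPM in control roots, a log2 change of 2.39 ± 0.94 that was not called (edgeR adjusted p = 0.424). The cytochrome P450 CYP82D47-like (ncbi_8260905) had a log2 change of 2.31 ± 0.70 (edgeR adjusted p = 0.349).

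Of the 8 genes that had been lower, 4 are described here. SULFUR DEFICIENCY-INDUCED 1 (ncbi_8280694), a gene that answers to sulfur shortage in Arabidopsis, was at 8.2, 6.95 and 7.9 CPM in rehydrated roots and at 14.6, 7.9 and 6.74 CPM in control roots, while PEG-treated roots of 7 days had held 0.677, 0.664 and 0.981 CPM. Adenylylsulfate reductase 1 (XLOC_010482), which reduces activated sulfate, was at 11, 4.56 and 2.92 CPM in rehydrated and at 10, 5.43 and 11.4 CPM in control roots. Both genes overlapped between the groups of day 11. Homocysteine S-methyltransferase 1 (ncbi_8285786), which forms methionine, was still below control without overlap, at 23, 15.5 and 20.5 CPM in rehydrated and 36.4, 51.8 and 41.3 CPM in control roots (log2 -1.14 ± 0.49, edgeR adjusted p = 0.472). The CASP-like protein ncbi_8271450, of a family that shapes root barriers, had log2 changes of -4.06 ± 0.50 at 7 days and of -1.25 ± 0.41 at 11 days.

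The direct test of whether the day-11 change differed from the day-7 change called 108 genes (0.671%), 14 higher (0.087%) and 94 lower (0.584%) in the day-11 minus day-7 difference. All 108 differed by 2-fold or more. Of the 94 lower ones, all were above control at 7 days, 75 of them called there, and 91 were below control at 11 days. Their medians were 1.59 at 7 days and -0.87 at 11 days, or -0.69 without control library 3. At 11 days 64 of them lay below control without overlap, beside 10.6% of all genes. The 14 higher ones had all been below control at 7 days, 11 of them called there, and 12 were above control at 11 days, with medians of -1.36 and 0.73. Because both times enter the test, these medians and the lack of overlap describe the called genes and support nothing further. The count and the balance of directions depended on single libraries and on the scaling. It was 3 without control library 2 of day 11, 20 without control library 3 and 209 without control library 1. Leaving out rehydrated libraries 1, 2 and 3 in turn gave 3, 3 and 8. Leaving out PEG libraries 1, 2 and 3 of day 7 gave 3, 227 and 8, and leaving out control libraries 1, 2 and 3 of day 7 gave 4, 6 and 436. With library totals alone in place of TMM there were 20 calls, 10 in each direction, and with the trend on gene length removed there were 5, 3 higher and 2 lower. Of the 30 genes named for this difference, 2 were called under each of the 20 alternatives tried, the cytochrome P450 ncbi_8278263 and the cysteine-rich protein XLOC_020621.

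Genes of photosynthesis were higher in PEG-treated roots at 7 days and lay within the range of the controls in rehydrated roots. The list holds light-harvesting proteins, photosystem subunits and electron carriers, 45 of them tested, among them also a root-type ferredoxin-NADP reductase and copper proteins with a plastocyanin-like domain that act outside photosynthesis. At 7 days 29 were called higher and none lower. At 11 days edgeR and DESeq2 called none, with 4 higher and 0 lower at an unadjusted p below 0.05, and the list median was 0.09 (-0.08 without control library 3, 0.27 with the trend on gene length removed) beside 0 for all genes. Summed over the list, rehydrated roots held 1330, 1160 and 1170 CPM, against 861, 1760 and 1310 CPM in control roots of day 11. PEG-treated roots of 7 days had held 4600, 3540 and 3360 CPM, against 1220, 1450 and 1120 CPM in their controls. The rehydrated libraries thus fell within the range of all control libraries of days 7 and 11.

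The 29 genes called at 7 days had a median log2 change of 2.54 then (range 1.71 to 3.46) and of 0.02 at 11 days (range -1.42 to 1.23; 17 above and 12 below 0). Chlorophyll a-b binding protein 151 (ncbi_8273545), which holds light-harvesting pigment, was at 63, 50.7 and 57.4 CPM in rehydrated roots and at 64.3, 103 and 36.7 CPM in control roots, while PEG-treated roots had held 520, 429 and 373 CPM. Its change at 11 days was -0.25 ± 0.39, and its difference between the days was called (log2 -2.87 ± 0.55, edgeR adjusted p = 0.0382). Another 4 genes of the list were called in that difference, photosystem I subunit O (ncbi_8263317), the light-harvesting protein CP29.2 (ncbi_8267514) and 2 copies of the photosystem II W protein (ncbi_8274736 and ncbi_8288258). Over the whole list, 4 members (8.89%) were above control and 4 (8.89%) below it without overlap at 11 days, beside 7.27% and 10.6% of all genes. Chlorophyll a-b binding protein 6A (ncbi_8270733), with the smallest p of the list at 11 days, was at 8.71, 7.43 and 6.38 CPM in rehydrated and at 2.27, 5.18 and 2.17 CPM in control roots (log2 1.23 ± 0.42, edgeR adjusted p = 0.377). The antenna protein CP26 (ncbi_8283006) was at 59.5, 46.2 and 51.1 CPM in rehydrated and at 21.3, 42 and 20.2 CPM in control roots (log2 0.91 ± 0.33, edgeR adjusted p = 0.392).

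Of 13 tested genes of carbon fixation, 2 had been called higher at 7 days and none was called at 11 days by either tool, where 1 was higher and 2 lower at an unadjusted p below 0.05 (median 0.06). Rubisco activase (ncbi_8274858), which frees Rubisco of bound inhibitors, was at 1.03, 1.08 and 0.541 CPM in rehydrated roots, against 2.39, 6.54 and 0.602 CPM in control roots. PEG-treated roots of 7 days had held 21, 8.63 and 6.03 CPM, and controls of that day 1.07, 1.11 and 1.3 CPM. The day-11 groups overlapped (log2 -1.83 ± 0.73), and the difference between the days was called (log2 -5.17 ± 1.02, edgeR adjusted p = 0.0399). A copy of the Rubisco small chain (ncbi_8260287) was at 4.1, 2.52 and 3.46 CPM in rehydrated and at 8.72, 7.28 and 8.42 CPM in control roots, without overlap (log2 -1.27 ± 0.37, edgeR adjusted p = 0.349). The list summed to 337, 303 and 288 CPM in rehydrated roots and to 183, 286 and 222 CPM in control roots, so the nearest libraries of the groups were almost level.

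Enzymes that remove reactive oxygen, the subject named in the title of the series, showed no called change at 11 days by either tool. Of 32 tested genes 3 were higher and 2 lower at an unadjusted p below 0.05, and the median was -0.09 (-0.01 with the trend on gene length removed). In PEG at 7 days 4 had been called higher, and the median had been 0.36. Catalase isozyme 1 (ncbi_8273613), which splits hydrogen peroxide, was at 445, 422 and 455 CPM in rehydrated roots, against 177, 318 and 310 CPM in control roots of day 11. The groups did not overlap, and the log2 change was 0.72 ± 0.30 (edgeR adjusted p = 0.452), beside 1.11 ± 0.30 in PEG at 7 days (edgeR adjusted p = 0.0488). A Cu/Zn superoxide dismutase (ncbi_8288465), which turns superoxide into hydrogen peroxide, was at 225, 245 and 192 CPM in rehydrated and at 151, 116 and 121 CPM in control roots (log2 0.77 ± 0.25, edgeR adjusted p = 0.353). Both of these genes were above control without overlap.

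Over the whole list, 13 members were above 0 and 19 below. Without overlap, 3 (9.38%) were above control and 4 (12.5%) below it, beside 7.27% and 10.6% of all genes. The other members described here stood below control or level with it. A mitochondrial Mn superoxide dismutase (ncbi_8259539) was at 81, 86.7 and 200 CPM in rehydrated roots and at 168, 397 and 337 CPM in control roots (log2 -1.29 ± 0.50), and its neighbour in the numbering, ncbi_8259540, was at 461, 388 and 447 CPM in rehydrated and 366, 555 and 488 CPM in control roots. How reads that match both copies were assigned is not given in the sources used here, so the level of each copy is uncertain. A cytosolic ascorbate peroxidase (ncbi_8261021), ranged from 537 to 1070 CPM in rehydrated and from 561 to 1280 CPM in control roots. A phospholipid hydroperoxide glutathione peroxidase (ncbi_8274172), which reduces lipid peroxides and was called higher in PEG at 7 days (log2 1.32 ± 0.26, edgeR adjusted p = 0.0145), was at 76.3, 42.7 and 75.5 CPM in rehydrated and 72, 71.7 and 59.3 CPM in control roots.

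Among relatives of these enzymes, the 43 tested glutathione S-transferases, which join glutathione to reactive compounds, had a median log2 change of -0.47 at 11 days, which was -0.38 without control library 3 and -0.27 with the trend on gene length removed. None was called by either tool, 8 were lower and 0 higher at an unadjusted p below 0.05, and 10 (23.3%) lay below control without overlap, beside 10.6% of all genes. A tau-class member (ncbi_8277424) was at 167, 98.7 and 195 CPM in rehydrated and at 281, 297 and 247 CPM in control roots (log2 -0.84 ± 0.31, edgeR adjusted p = 0.4). Thioredoxins and glutaredoxins, small proteins that reduce disulfides, had a median of -0.38 over 59 genes, which was -0.21 without control library 3 and -0.11 with the trend on gene length removed, with 0 higher and 8 lower at an unadjusted p below 0.05 and none called by either tool. Class III peroxidases, secreted enzymes of the cell wall, had a median of -0.14 over 54 genes (0.05 with the length trend removed), with none called by either tool and 2 higher and 1 lower at an unadjusted p below 0.05.

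Genes of abscisic acid metabolism had a median log2 change of 0.42 over 14 tested genes, 12 of them above 0, although none was called by either tool and 2 were higher at an unadjusted p below 0.05. An abscisic acid 8'-hydroxylase (ncbi_8275341), which breaks the hormone down, was at 442, 635 and 471 CPM in rehydrated roots, against 285, 288 and 238 CPM in control roots. The groups did not overlap, and the log2 change was 0.93 ± 0.33 (edgeR adjusted p = 0.392), beside 0.10 ± 0.33 in PEG at 7 days. One copy of zeaxanthin epoxidase (ncbi_8267999), an enzyme early in the synthesis of the hormone, was at 23.6, 53.7 and 66.1 CPM in rehydrated and at 7.17, 27.1 and 23 CPM in control roots. Another copy (ncbi_8267997) was at 31.6, 44.6 and 56.5 CPM in rehydrated and at 61.5, 55.3 and 108 CPM in control roots, so the copies stood on opposite sides of control, and their reads may be shared.

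In abscisic acid signalling the 24 tested genes had a median of -0.33, with none called by either tool and 2 higher and 5 lower at an unadjusted p below 0.05. The receptors PYL4 (ncbi_8263115), PYL8 (ncbi_8274379) and PYL8-like (ncbi_8287761) had log2 changes of -0.60 ± 0.25, -0.48 ± 0.22 and -0.62 ± 0.28. PYL8 was at 78.2, 57.3 and 77.4 CPM in rehydrated and at 83.9, 108 and 105 CPM in control roots. Of the SnRK2 kinases, SRK2I (ncbi_8267246) was at 90.8, 64.1 and 105 CPM in rehydrated and 133, 114 and 153 CPM in control roots, and SRK2A (ncbi_8267034) was at 66.1, 64 and 73.5 CPM in rehydrated and 54, 44.5 and 46.7 CPM in control roots. These 2 kinases thus stood on opposite sides of control, each without overlap.

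The list with the lowest median at 11 days was that of metal handling, which holds transporters, reductases and chaperones for iron, zinc and copper. Its 64 tested genes had a median log2 change of -0.67, and 56 of them were below 0. This median was -0.55 without control library 3 and -0.65 with the trend on gene length removed. At an unadjusted p below 0.05, 19 were lower and 0 higher, and 20 (31.2%) lay below control without overlap, beside 10.6% of all genes. edgeR called none and DESeq2 called 1, the copper chaperone ATOX1. In PEG at 7 days 4 had been called lower, with a median of -0.21. Summed over the list, rehydrated roots held 2760, 2430 and 3420 CPM, against 4330, 5400 and 5290 CPM in control roots of day 11. These rehydrated libraries were below every one of the other 15 libraries, which ranged from 4330 to 11700 CPM.

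Much of that sum came from metallothionein 1a (ncbi_8278081), a small cysteine-rich protein that binds metals. It was at 1250, 845 and 1590 CPM in rehydrated roots, against 2450, 2610 and 2710 CPM in control roots (log2 -1.08 ± 0.50, edgeR adjusted p = 0.513). ATOX1 (ncbi_8284787) was at 104, 84.9 and 126 CPM in rehydrated and at 209, 262 and 379 CPM in control roots, and its difference between the days was called (log2 -2.04 ± 0.43, edgeR adjusted p = 0.0437). Neither gene overlapped between the groups.

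The zinc transporters ZIP1 (ncbi_8279565) and zinc transporter 2 (ncbi_8284134) had log2 changes of -2.24 ± 0.79 and -1.12 ± 0.41. ZIP1 was at 2.05, 3.12 and 4.54 CPM in rehydrated and at 9.56, 19.5 and 16.8 CPM in control roots. A ferric reductase (ncbi_8261916), which reduces iron at the root surface before uptake, was at 2.67, 5.04 and 14.2 CPM in rehydrated and at 20.8, 128 and 23.2 CPM in control roots. Control library 2 alone was above 100 CPM for this gene. The same library was the highest of the 6 for 4 of 5 copies of nicotianamine synthase, whose product carries iron and zinc inside the plant, for example ncbi_8261713, at 0.103, 1.68 and 2.81 CPM in rehydrated and 3.7, 30.9 and 2.05 CPM in control roots. The transporters of nicotianamine-bound metals YSL6 (ncbi_8265749) and YSL3 (ncbi_8276858) had log2 changes of -1.09 ± 0.41 and -0.71 ± 0.29, each without overlap.

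**Figure D4:**
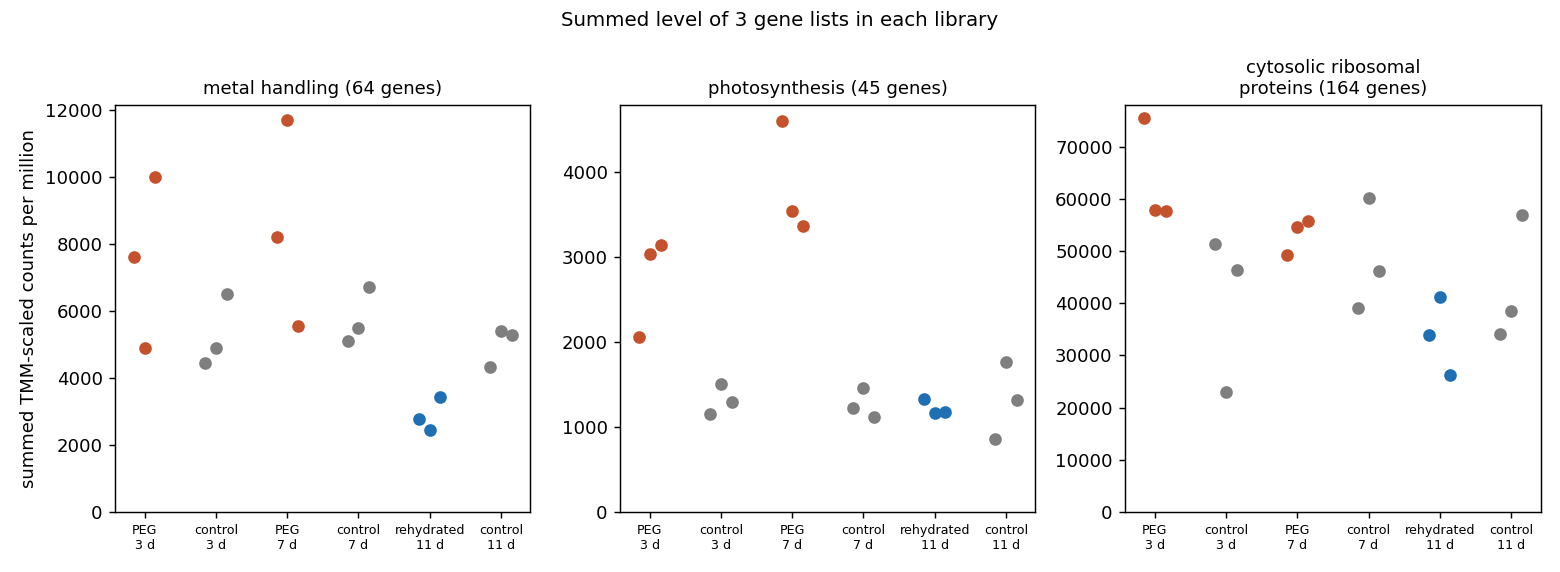
Summed level (vertical axes, TMM-scaled CPM, from 0) of the tested genes of metal handling, photosynthesis and cytosolic ribosomal proteins in each of the 18 libraries, 3 points per group. Rehydrated roots lay lowest for metal handling (2430 to 3420), within the control range for photosynthesis (1160 to 1330) and below the level of control library 3 of day 11 (56900) for ribosomal proteins.

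Water channels and transporters of nutrients were mostly near control. The 24 tested aquaporins had a median of -0.05 (0.08 without control library 3), with none called by either tool and 1 higher at an unadjusted p below 0.05. The tonoplast channel TIP2-1 (ncbi_8273814) was at 3620, 4230 and 2800 CPM in rehydrated and at 1090, 3860 and 2350 CPM in control roots, where its mean in PEG-treated roots of 7 days had been 936 CPM, against 3120 CPM in control roots. The plasma membrane channel PIP2-4 (ncbi_8264070) was at 3310, 1900 and 3320 CPM in rehydrated and at 2280, 3640 and 3050 CPM in control roots. Both channels overlapped between the groups.

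The 61 nutrient transporters had a median of -0.18 (-0.09 without control library 3), with none called by either tool and 1 higher and 6 lower at an unadjusted p below 0.05. PHO1 homolog 3 (ncbi_8281846), of a family that loads phosphate into the xylem, was at 152, 243 and 367 CPM in rehydrated roots, against 118, 96.6 and 50.4 CPM in control roots (log2 1.52 ± 0.44, edgeR adjusted p = 0.349). The 2 nitrogen transporters described here were below control. The nitrate transport protein NRT3.1-like (ncbi_8278271), a partner of high-affinity nitrate transporters, was at 1310, 1390 and 1340 CPM in rehydrated and at 1670, 2370 and 3030 CPM in control roots. Ammonium transporter 2 (ncbi_8283153) was at 55.6, 66.4 and 71.3 CPM in rehydrated and at 74.4, 147 and 147 CPM in control roots. All 3 of these genes were without overlap, and none was called. The 16 tested genes of nitrogen assimilation had a median of 0.14 (0.02 without control library 3), with none called by either tool and 1 higher and 0 lower at an unadjusted p below 0.05. That gene was an asparagine synthetase (ncbi_8278939), which stores nitrogen as asparagine, at 215, 174 and 335 CPM in rehydrated and at 99.6, 26.9 and 67.1 CPM in control roots (log2 1.90 ± 0.67, edgeR adjusted p = 0.388).

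Genes of conducting tissue, whose medians had been below control in PEG, had medians a little above control after it. The 30 tested genes of xylem walls, 2 of them called lower at 7 days, had a median log2 change of -1.53 in PEG at 7 days and of 0.33 at 11 days (0.57 without control library 3), with 25 of 30 above 0, and none was called or had an unadjusted p below 0.05 at 11 days. DESeq2 called none. Fasciclin-like arabinogalactan protein 2 (ncbi_8260994), of a family of wall proteins abundant in wood, was at 336, 558 and 216 CPM in rehydrated and at 172, 413 and 364 CPM in control roots. For the 13 phloem genes, 2 of them called lower at 7 days, the medians were -1.38 at 7 days and 0.31 at 11 days (0.61 without control library 3, 0.15 with the length trend removed). At 11 days 7 were above 0 and 6 below, with 1 gene lower at an unadjusted p below 0.05 and none called by either tool. Summed, the phloem genes held 186, 182 and 142 CPM in rehydrated and 185, 151 and 161 CPM in control roots, and the groups overlapped. The sieve element occlusion protein ncbi_8285465, part of the plugs of sieve tubes, was at 40.7, 38.5 and 25.9 CPM in rehydrated roots and at 17.9, 18.1 and 37.1 CPM in control roots. PEG-treated roots of 7 days had held 3.65, 8.4 and 6.31 CPM, against 22.5, 27.1 and 13.9 CPM in their controls. Between rehydrated and control roots both genes overlapped.

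Pectin-modifying enzymes had a median of 0.29 over 69 tested genes, with 51 of them above 0. The polygalacturonase ADPG2 was the 1 gene higher at an unadjusted p below 0.05 and the 1 called by DESeq2, and 2 were lower. Pectinesterase 31-like (ncbi_8283426), which removes methyl groups from pectin, was at 17.9, 19.5 and 22.6 CPM in rehydrated and at 40.4, 31.5 and 37.9 CPM in control roots (log2 -0.87 ± 0.23, edgeR adjusted p = 0.349). Enzymes and carriers of starch and sucrose had a median of 0.32 over 49 genes, with 6 higher and 1 lower at an unadjusted p below 0.05 and none called by either tool. Sucrose synthase 7-like (ncbi_8275091), which splits sucrose, was at 11.4, 16.7 and 6.28 CPM in rehydrated and at 3.82, 5.31 and 3.25 CPM in control roots. Starch synthase 3 (ncbi_8267446) was at 23.3, 31.2 and 17.3 CPM in rehydrated and at 15.8, 12.2 and 7.82 CPM in control roots. Sucrose transporter 4 (ncbi_8288074) lay on the other side, at 140, 140 and 168 CPM in rehydrated and at 208, 225 and 228 CPM in control roots. None of these 4 genes overlapped between the groups.

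WRKY factors, regulators of defence and stress genes, had a median of 0.31 over 54 tested genes, or 0.15 without control library 3. At an unadjusted p below 0.05, 7 were higher and 0 lower, and none was called by either tool. WRKY33 (ncbi_8263140), which acts in defence against fungi in Arabidopsis, was at 46.7, 227 and 143 CPM in rehydrated roots, against 23.1, 20.9 and 52.3 CPM in control roots (log2 2.11 ± 0.65, edgeR adjusted p = 0.35). WRKY18-like (ncbi_8274191) was at 26.2, 64 and 76.7 CPM in rehydrated and at 20.1, 10.1 and 21.7 CPM in control roots (log2 1.69 ± 0.55). Among the rehydrated libraries both were lowest in library 1, and only the second was without overlap between the groups. Receptor-like kinases had a median of 0.17 over 318 genes (0.05 with the trend on gene length removed), with 17 higher and 4 lower at an unadjusted p below 0.05, no edgeR call and 1 DESeq2 call (ncbi_8275104, log2 1.37 by edgeR).

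Heat shock proteins and their regulators had a median of 0.31 over 67 tested genes, with 9 higher and 4 lower at an unadjusted p below 0.05. The higher ones include chaperones of the ClpB family, which pull apart aggregated proteins. ClpB4 of mitochondria (ncbi_8274198) was at 21.5, 20.3 and 15.9 CPM in rehydrated and at 11, 9.63 and 5.77 CPM in control roots (log2 1.13 ± 0.28, edgeR adjusted p = 0.349), and DESeq2 called it, the only member that either tool called. ClpB1 (ncbi_8284441) was at 7.18, 8.15 and 6.6 CPM in rehydrated and at 0.836, 3.7 and 1.56 CPM in control roots. ClpB3 of plastids (ncbi_8258248) was at 31.1, 37.9 and 25.1 CPM in rehydrated and at 20.1, 20.6 and 21.1 CPM in control roots. All 3 were above control without overlap, and their log2 changes in PEG at 7 days were 0, -0.22 and -0.08. Another ClpB1 copy (ncbi_8262661) was at 24.8, 24.7 and 21.8 CPM in rehydrated and at 21.3, 20.2 and 8.3 CPM in control roots. Its log2 change was 0.52 ± 0.38, or 0.19 without control library 3. In PEG this copy had been below control, with log2 changes of -1.40 ± 0.39 at 7 days, not called, and of -2.90 ± 0.42 at 3 days (edgeR adjusted p = 0.000454). Over the whole list, 10 members (14.9%) were above control and 8 (11.9%) below it without overlap, beside 7.27% and 10.6% of all genes.

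Genes of protein synthesis and respiration were below control as groups, by medians that were smaller without control library 3 and with the trend on gene length removed. The 164 tested cytosolic ribosomal proteins had a median log2 change of -0.41, with 149 of them below 0 and 32 lower at an unadjusted p below 0.05. The median was -0.18 without control library 3 and -0.10 with the trend on gene length removed. Summed, they held 33900, 41200 and 26200 CPM in rehydrated roots, against 34100, 38600 and 56900 CPM in control roots, and the groups overlapped. Ribosomal protein L34B (ncbi_8260628) was at 311, 246 and 351 CPM in rehydrated and at 494, 524 and 585 CPM in control roots. The 79 genes of mitochondrial respiration had a median of -0.36, which was -0.13 without that library and -0.12 with the length trend removed, with 13 lower at an unadjusted p below 0.05. No gene of either list was called by either tool. The part of control library 3 and of gene length in these shifts was not tested.

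**Figure D5:**
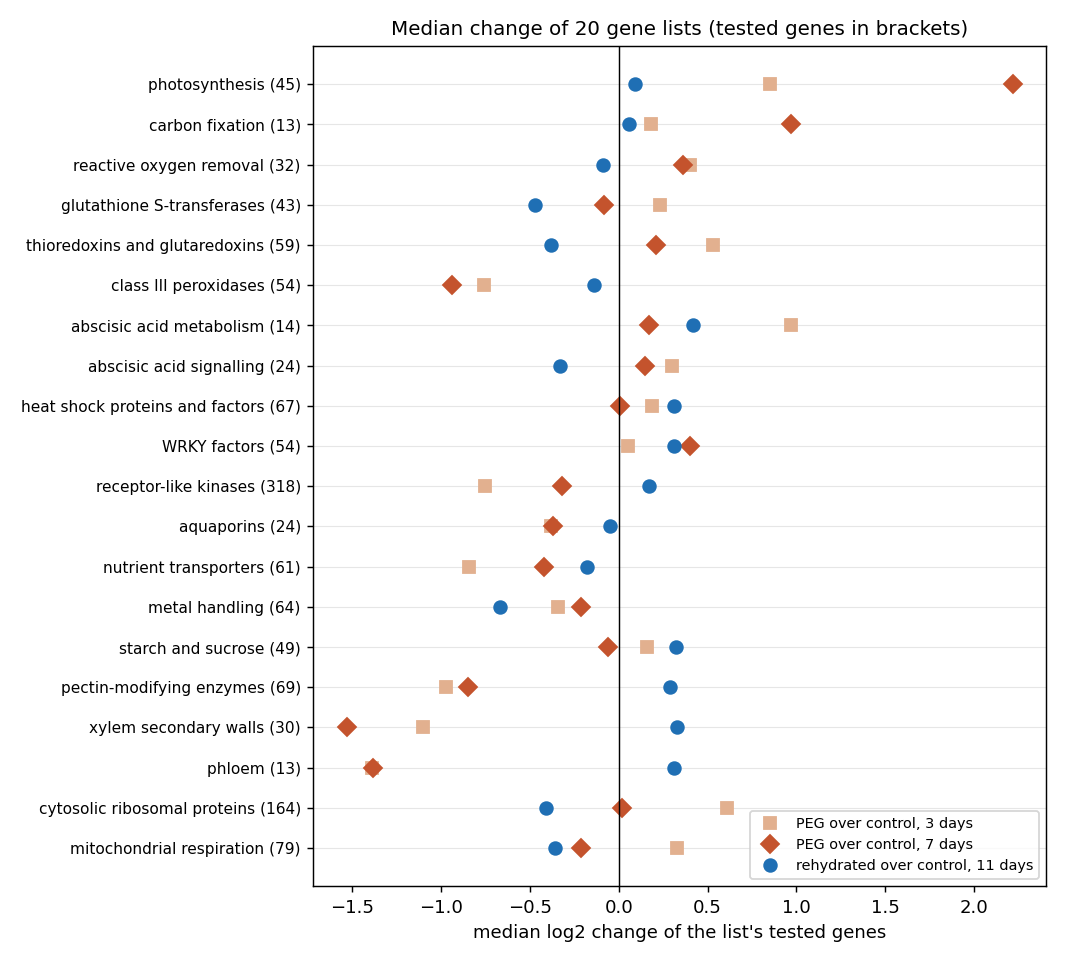
Median log2 change (horizontal axis) of the tested genes of 20 lists (rows, number of genes in brackets) in PEG-treated over control roots at 3 days (squares) and 7 days (diamonds) and in rehydrated over control roots at 11 days (circles). The circles lie between -0.67 (metal handling) and 0.42 (abscisic acid metabolism), while the diamonds reach 2.22 (photosynthesis) and -1.53 (xylem secondary walls).

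Over all 50 lists, no member was called at 11 days by edgeR, and in 9 lists DESeq2 called 1 member each. List medians ran from -0.67 in metal handling to 0.42 in abscisic acid metabolism. Late embryogenesis proteins and dehydrins, which protect cells as they dry, had a median of -0.09 over 12 genes (0.07 without control library 3), and none had an unadjusted p below 0.05. Genes of seed storage had a median of 0.13 over 14 genes, which was 0.32 without control library 3 and 0.50 with the length trend removed, and 1 was higher at that threshold. Of 73 genes of the cell cycle, whose median had been -0.67 in PEG at 7 days, 1 was higher and 2 were lower, and the median was 0.04. Of 74 genes of auxin transport and response 2 were higher and 7 lower, with a median of -0.25 (-0.15 without control library 3). Of the 19 genes of low-oxygen response that were tested, the hypoxia-responsive protein ncbi_8259513 was the 1 with an unadjusted p below 0.05 and the 1 that DESeq2 called. It stood at 51.6, 33.6 and 64.3 CPM in rehydrated roots, against 129, 139 and 176 CPM in control roots, a log2 change of -1.57 ± 0.34 (edgeR adjusted p = 0.349). In PEG at 7 days it had been at 357, 181 and 271 CPM, against 90.9, 56.8 and 117 CPM in control roots (log2 1.61 ± 0.34, edgeR adjusted p = 0.0202). Its difference between the days was called (log2 -3.18 ± 0.48, edgeR adjusted p = 0.0173), so this gene was above control in PEG and below control, without overlap, after PEG.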

How the data were processed

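RNA of castor roots was sequenced as mRNA libraries, 3 per group in 6 groups (18 libraries). Per the file headers, the deposited table gives estimated counts and FPKM of each gene for every library, beside a product name. FPKM, the authors' length-scaled unit, served only to recover relative gene length. At least 98.3% of the deposited estimated counts of a library were whole numbers, and all were rounded. The aligner, the counter, the genome build and the handling of strand are named by no label or header. Of 36 columns of per-sample values 3 were not used, the FPKM of the day-11 controls, whose labels point to different columns. Total counts ranged from 6607760 to 10817476, and low counts limit the precision of low genes. Product names in the table are best matches in other species, mostly Jatropha curcas. Of the identifiers 20538 are NCBI gene IDs (18929 of all matched RefSeq's gene table) and 794 are assembled loci.

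Genes were kept with edgeR 4.0.16 (R 4.3.3; filterByExpr, minimum count 10, minimum total 15), which left 16085 of 21332 (75.4%). A quasi-likelihood model with TMM factors and 1 mean per group was fitted to all 18 libraries, so that 6 groups share the estimate of spread. Rehydrated roots were set against controls of day 11, PEG-treated roots against controls of days 7 and 3, and the day-11 difference against the day-7 difference. A gene was called at a Benjamini-Hochberg adjusted p below 0.05 over all genes tested. SEs were derived from the F statistic and are approximate. Alternatives were DESeq2 1.42.0, other scalings, no filter, fewer libraries, a stricter threshold, a length correction and each library left out.

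The members and the 50 gene lists were chosen with earlier results of these data known. Genes named for a comparison were called, had a described product, a mean of at least 5 CPM and, at 11 days, no overlap. Where fewer than 5 were called in a direction at 11 days, genes with the smallest unadjusted p filled it to 5, without those conditions. For the difference between days they were the 6 largest in each direction. Added to these were all members called in that difference of any list with no more than 6 such members, without the rule on level. Names that are locus codes of rapeseed or rice counted as undescribed. The late embryogenesis and seed storage lists were trimmed by product name after the table was read. Genes given as examples of a list, the 16 leaders of day 7 and the omission of day-7 libraries were chosen after their values were seen. Replicate numbers were not taken to pair the samples, since no label says what they mark.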

Additional observations from a re-analysis of the deposited data

Results flagged for a closer look

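For 30 genes the change at 11 days (rehydrated against control roots) differed from the change at 7 days (PEG-treated against control roots) by the test of that difference (edgeR's quasi-likelihood test, Benjamini-Hochberg adjusted p between 0.00813 and 0.0498). Values are log2, day-11 change minus day-7 change, so a positive value means a higher rehydrated-to-control ratio than PEG-to-control ratio. Most of these calls depended on single libraries and on the scaling, as given in the next part.

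Positive differences belonged to genes that were below control in PEG. The largest among genes with a mean of at least 5 CPM was that of a tropinone reductase homolog (ncbi_8261980), at 4.43 ± 0.82, with 2.77, 3.96 and 3.57 CPM in rehydrated and 1.19, 1.97 and 3.13 CPM in control roots of day 11. SULFUR DEFICIENCY-INDUCED 1 (ncbi_8280694) had 3.31, the cytochrome P450 ncbi_8278263 had 2.59, and the beta-galactosidase ncbi_8272545 had 2.45. The polygalacturonase ADPG2 (ncbi_8278979) had 2.21 and a flavonoid 3'-monooxygenase (ncbi_8281170) had 2.11. The mitochondrial chaperone BCS1-B (ncbi_8258154), which helps assemble a respiratory complex, had 2.13, with 31.1, 25.7 and 48.0 CPM in rehydrated and 19.6, 23.6 and 11.4 CPM in control roots of day 11.

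Negative differences belonged to genes that were above control in PEG. Rubisco activase (ncbi_8274858) had -5.17, PLANT CADMIUM RESISTANCE 9-like (ncbi_8269711) had -4.63 and the cysteine-rich protein XLOC_020621 had -4.59. A prolyl 4-hydroxylase (ncbi_8272249), which hydroxylates proline in wall proteins, had -4.20, with 2.97, 1.2 and 3.14 CPM in rehydrated and 12.1, 5.8 and 9.14 CPM in control roots of day 11. A sulfite exporter of the TauE/SafE family (ncbi_8274876) had -4.00. It was at 24.7, 34.5 and 35.6 CPM in rehydrated and at 22.6, 47.1 and 68.6 CPM in control roots of day 11, after 832, 318 and 479 CPM in PEG-treated and 56.8, 27.8 and 63.3 CPM in control roots of day 7. Cytosolic phosphoglycerate kinase (XLOC_007875), of glycolysis, had -3.55.

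The remaining values fall to lists. In photosynthesis and carbon fixation, photosystem I subunit O (ncbi_8263317) had -3.06, CP29.2 (ncbi_8267514) had -2.66, chlorophyll a-b binding protein 151 (ncbi_8273545) had -2.87, and the W proteins of photosystem II ncbi_8274736 and ncbi_8288258 had -1.82 and -3.25. Chloroplast glyceraldehyde-3-phosphate dehydrogenase A (ncbi_8273055) had -2.87. Among redox, transport and stress genes, the thioredoxin-like protein Clot (ncbi_8261129) had -1.96, glutaredoxin-C9-like (ncbi_8269112) had -2.58, sucrose transporter 4 (ncbi_8288074) had -1.58, the hypoxia-responsive protein ncbi_8259513 had -3.18, ATOX1 (ncbi_8284787) had -2.04 and the pathogenesis-related protein STH-2 (ncbi_8278791) had -2.97. Among ribosomal and mitochondrial genes, 60S L11-like (XLOC_001051) had -3.51, 40S S27-2 (ncbi_8262658) had -1.89, mitochondrial S13 (XLOC_000908) had -3, chloroplast L27-like (ncbi_8288930) had -2.11 and NADH dehydrogenase subunit 1 (ncbi_107262507) had -2.69.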

How the results depend on the processing

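At 11 days edgeR called 2 genes, and 2 also with DESeq2's size factors, with the length trend removed and with the replicate block. The count was 1 with library totals, 58 with DESeq2, and 0 without the filter (1624 genes at an unadjusted p below 0.05), with only the 6 libraries compared (1757) and at an adjusted p below 0.01. With each library left out it ranged from 0 to 3. For the difference between days the 108 calls (14 higher, 94 lower) were 115 with DESeq2's size factors, 96 without the filter and 124 with the replicate block, 95 of them shared. They were 931 with DESeq2 (308 higher, 623 lower), 436 with only the 12 libraries compared (116 higher, 320 lower), 20 with library totals (10 higher, 10 lower), 5 with the length trend removed (3 higher, 2 lower), 3 at an adjusted p below 0.01, and 3 to 436 with each library left out. Library totals moved the median difference over all genes to 0.352, against 0.04 with TMM. The causes were not tested. No gene named for 11 days or for the difference between days changed direction under the alternatives run. The cytochrome P450 ncbi_8278263 was called at 11 days under 5 of 14 alternatives and ncbi_8263126 under 6 of 14. The median of metal handling ranged from -0.86 to -0.55 and that of WRKY factors from 0.03 to 0.42. Same-numbered rehydrated and control libraries correlated at 0.16, -0.15 and -0.16 in their deviations, and other pairs at -0.23 to 0.31. With 3 libraries a group this cannot exclude a pairing. The numbers were not taken to pair the samples.

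With 3 libraries a group the median SE was 0.377, and of 1291 genes that differed by 2-fold or more at 11 days edgeR called 2. A change of -2.85 ± 0.46 (log2, XLOC_020621, edgeR adjusted p = 0.0689) was not called. Levels rest on estimated counts whose counting is not described, and reads of near copies were not told apart. The source of the 3 libraries of a group and the handling dates are not given, so a batch between treated and control roots of day 11 cannot be told apart from the treatment.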

Other observations

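DESeq2 called 56 genes at 11 days that edgeR did not. These were named after their values were seen, and all but the pathogenesis-related protein STH-2 were without overlap. Since they were chosen by their p in this comparison, the lack of overlap adds nothing to their values. Across all genes 7.27% were higher and 10.6% lower without overlap. The examples given here are single genes and stand for no group. WUSCHEL-related homeobox 4 (ncbi_8288579), which keeps the vascular cambium dividing in Arabidopsis, was at 7.38, 4.2 and 5.19 CPM in rehydrated roots, against 1.91, 0.37 and 1.2 CPM in control roots (DESeq2 log2 2.27 ± 0.57, adjusted p = 0.0308). A beta-D-xylosidase (ncbi_8258784), which trims xylose from wall polymers, was at 52.4, 33.8 and 54.5 CPM in rehydrated and at 4.42, 13.2 and 17.1 CPM in control roots. The cytochrome P450 72A15-like (ncbi_8281194) was at 19.4, 13.7 and 29.2 CPM in rehydrated and at 3.94, 2.1 and 2.53 CPM in control roots.

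Among the lower genes, a regulatory subunit of the 26S proteasome (ncbi_8289145) was at 13.6, 14.6 and 13.1 CPM in rehydrated roots, against 76.8, 65.2 and 24.9 CPM in control roots (DESeq2 log2 -2.00 ± 0.46, adjusted p = 0.0136). The list of 54 proteasome genes had a median of 0.04, with 32 genes above 0 and 0 higher and 7 lower at an unadjusted p below 0.05. The ubiquitin-conjugating enzyme E2 14 (ncbi_8258696), the ubiquitin hydrolase 15 (ncbi_8275007) and the NEDD8-specific protease 1 (ncbi_8289747) had DESeq2 log2 changes of -1.48 ± 0.36, -1.43 ± 0.38 and -1.51 ± 0.37. Translation factor SUI1 (ncbi_8279855) was at 30, 41.7 and 42.7 CPM in rehydrated and at 78.4, 171 and 350 CPM in control roots, where control library 3 was the highest. An alpha-expansin (ncbi_8270818), which loosens walls during growth, was at 10.7, 14.6 and 9.85 CPM in rehydrated and at 24, 53.8 and 85.4 CPM in control roots, again with control library 3 highest.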
